A study of Mus musculus with 20 samples.

Results

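The cytosolic ribosomal protein genes encode the protein part of the ribosome outside mitochondria. Members were the protein-coding genes whose symbol is Rpl or Rps followed by a digit, or is Rplp0, Rplp1, Rplp2 or Rpsa, without symbols marked -ps and without the Rps6k kinases. This gave 89 of 21900 protein-coding genes, 54 named for the large subunit and 35 for the small subunit. The name rule also took in Rps19bp1, which encodes a protein that binds RPS19, and Rps23rg1, a retrogene, neither of which encodes a ribosomal subunit protein. Of the 89 members, 84 had a value in all 4 chromatin RNA files, Rpl3l was listed only in ESC WT, Rps27rt was not listed in ESC KO, and Rpl13, Rpl32l and Rps23rg1 had no value in any file.

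The study measured open chromatin (ATAC-seq, which marks DNA that a transposase can reach), RNA held on chromatin (ChrRNA-seq) and m6A, a methyl mark on adenosine, in that RNA (Chrm6A-seq). Its 4 groups were of the C57BL/6 strain: cardiomyocyte cultures derived from Mettl3-KO embryonic stem cells (CM KO), the same cultures from wild-type cells (CM WT), Mettl3-KO embryonic stem cells (ESC KO) and wild-type embryonic stem cells (ESC WT). Mettl3 encodes the catalytic subunit of the main nuclear m6A methyltransferase. Cultures were differentiated through embryoid bodies, and the labels do not say which part of Mettl3 was removed or whether KO cells are 1 clone. ATAC-seq had 3 libraries in each group, ChrRNA-seq and Chrm6A-seq had 1 file in each group, and the labels do not state whether replicate libraries were grown as separate cultures, so their spread may be technical.

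Ribosomal protein genes are transcribed in nearly every cell, and growing stem cells need their products in quantity. In vertebrates their transcripts usually begin in a terminal oligopyrimidine (TOP) tract, a run of C and T bases at the first transcribed base through which mTOR signalling controls their translation. Many of them also carry small nucleolar RNA (snoRNA) genes in their introns. SnoRNAs guide chemical modification of ribosomal RNA and are cut out of the host transcript after splicing.

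The letters around the start show the elements searched in the RefSeq promoter table of GRCm38.p6, which had a window for 69 of the 89 members. Each sequence below runs from 60 bases before the annotated start to base 20 of the transcript, and capitals mark the TOP tract in Rpl13a, Rpl27a, Rps24, Rps9 and Rps21, and in the other 3 genes a promoter motif. The 5 genes with a tract are members that recur in the results below, and the other 3 show the ETS-type motif CCGGAAG, the SP-type motif GGGCGG and the letters TATAAA. In Rpl23 and Rpl36a the marked letters lie after the annotated start, from base 11 and base 4 of the transcript.
Rpl13a, chr7:45128726-45128805, minus strand: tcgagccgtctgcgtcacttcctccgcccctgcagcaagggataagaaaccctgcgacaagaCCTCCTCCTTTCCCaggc
Rpl27a, chr7:109519135-109519214, plus strand: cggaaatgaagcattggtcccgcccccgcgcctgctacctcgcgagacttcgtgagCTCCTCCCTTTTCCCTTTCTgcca
Rps24, chr14:24490618-24490697, plus strand: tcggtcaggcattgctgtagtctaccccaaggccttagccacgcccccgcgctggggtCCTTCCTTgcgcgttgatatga
Rps9, chr7:3703981-3704060, plus strand: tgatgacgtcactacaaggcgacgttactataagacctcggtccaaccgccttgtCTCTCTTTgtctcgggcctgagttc
Rps21, chr2:180257319-180257398, plus strand: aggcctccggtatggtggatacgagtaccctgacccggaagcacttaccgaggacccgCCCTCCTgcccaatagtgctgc
Rpl37, chr15:5116553-5116632, plus strand: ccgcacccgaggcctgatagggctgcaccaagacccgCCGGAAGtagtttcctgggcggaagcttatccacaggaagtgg
Rpl23, chr11:97782420-97782499, minus strand: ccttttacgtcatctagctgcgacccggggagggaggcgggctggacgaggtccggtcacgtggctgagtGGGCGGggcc
Rpl36a, chrX:134585594-134585673, plus strand: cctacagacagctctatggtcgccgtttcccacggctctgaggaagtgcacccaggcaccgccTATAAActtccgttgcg

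A TOP tract, searched as a C followed by at least 4 pyrimidines beginning within 5 bases of the annotated start on the sense strand, was present in 31 of the 69 members (44.9%), against 18.7% of 17423 other coding genes. The longest tract, of 20 bases, was in Rpl27a, and the median length was 8 bases in members and 6 in other genes. On either strand of the window from 250 bases before the start to 50 after it, CCGGAAG was found in 36.2% of members and 11.8% of other genes, AAGATGGCG, the letters bound by YY1, in 5.8% and 1.9%, and GGGCGG in 58.0% and 46.3%. TATAAA was found in 11.6% of members and 13.4% of other genes, and CCAAT in 31.9% and 39.2%. The end of CCGGAAG and the beginning of AAGATGGCG share letters, so these 2 can overlap, and a match describes the sequence only.

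Of the 89 members, 30 overlapped at least 1 snoRNA gene (33.7%), against 1.8% of all coding genes. They are called snoRNA hosts here, 20 of the large and 10 of the small subunit, and together they hold 59 snoRNA genes. Among those of the large subunit are Rpl3, Rpl4, Rpl5, Rpl6, Rpl7a, Rpl10, Rpl12, Rpl13, Rpl13a, Rpl17, Rpl21, Rpl23, Rpl23a, Rpl27a, Rpl30, Rpl32, Rpl37, Rpl39 and Rplp2. Among those of the small subunit are Rps2, Rps3, Rps3a1, Rps12, Rps13, Rps16, Rps20 and Rpsa. Rpl4 holds 5, and Rpl13a (Snord32a, Snord33, Snord34 and Snord35a) and Rpl7a hold 4 each. Hosts and the other 59 members had like lengths, with medians of 3179 and 3269 bp.

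Estimated depth in 1000000 reads was close between ChrRNA-seq libraries, at 29.8 in CM KO, 29.4 in CM WT, 28 in ESC KO and 27.9 in ESC WT. The summed RPKM (reads per kilobase of gene and per 1000000 mapped reads) of 10 cardiomyocyte markers was 0.789 in CM KO, 8.16 in CM WT, 0.97 in ESC KO and 1.05 in ESC WT. The CM KO sum was thus no higher than the ESC sums. Ttn alone gave 0.491 RPKM in ESC KO and 0.641 in ESC WT, against 0.14 in CM KO. Single markers went both ways, at low values. Tnnt2, Myh6, Myh7, Actc1 and Nkx2-5 were higher in CM KO than in ESC libraries or unlisted there, with Tnnt2 highest at 0.103 RPKM. Myl7 and Ttn were lower in CM KO, and Tnni3 and Ryr2 lay between the ESC values. Myl2 was unlisted in CM KO and in both ESC libraries. The 8 pluripotency markers, of which Sox2 was unlisted in every library, summed to 15.8, 9.03, 70.1 and 73.6 RPKM in that order of libraries. Markers of other types were present in the CM cultures: 6 fibroblast markers summed to 8.08 RPKM in CM KO, 30.1 in CM WT and at most 0.245 in ESCs, and 5 erythroid markers to 46.2 RPKM in CM KO, 41.6 in CM WT and at most 0.118 in ESCs. The part of this mixed make-up in the differences between CM and ESC libraries was not tested, and fewer cells of a type and less RNA per cell cannot be told apart. Mettl3 itself read 1.07 RPKM in CM KO, 1.18 in CM WT, 1.28 in ESC KO and 1.73 in ESC WT, which does not check the genotype, since the removed part is not known.

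Members with a snoRNA gene stood far above the others in chromatin RNA in every library. The 29 listed hosts had a median of 147 RPKM in CM KO, 96.9 in CM WT, 221 in ESC KO and 179 in ESC WT. Members without a snoRNA gene had medians of 3.51, 3.07, 5.67 and 5.56 RPKM in the same order. The groups did not overlap in any library. In ESC WT the lowest host, Rpl6, had 17.7 RPKM and the highest member without a snoRNA gene, Rps9, had 17.3 RPKM. In the other libraries the lowest host, again Rpl6, had 14.3 RPKM in CM KO, 11.3 in CM WT and 20.0 in ESC KO, above highest non-host values of 12.2, 9.77 and 17.7 RPKM.

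**Figure D1:**
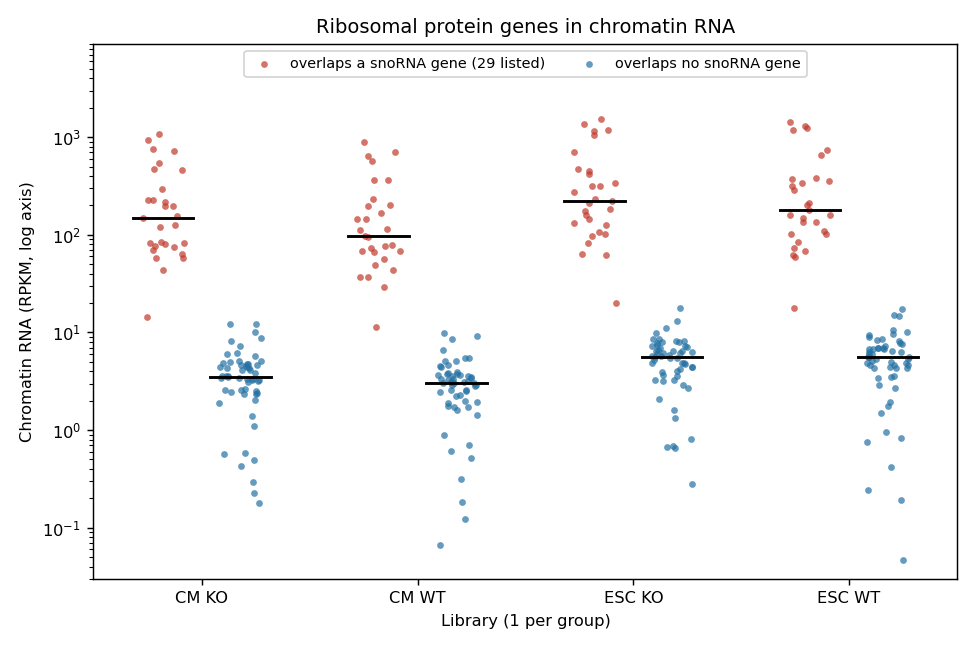
Chromatin RNA of each listed ribosomal protein gene, in RPKM on a log axis, in the 4 libraries (1 per group). Each point is a gene, red where it overlaps a snoRNA gene and blue where it does not, and black bars are medians; the red and blue points do not overlap, with medians of 179 and 5.56 RPKM in ESC WT.

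The highest mean over the 4 libraries was that of Rpl13a, a large-subunit protein gene with 4 snoRNA genes. It had 927 RPKM in CM KO, 895 in CM WT, 1518 in ESC KO and 1445 in ESC WT. Rpl7a, with 4 snoRNA genes, had 1085 RPKM in CM KO, 698 in CM WT, 1367 in ESC KO and 1298 in ESC WT. Both were higher in both ESC libraries than in both CM libraries. At the other end, Rps27rt was at 0.181 RPKM in CM KO, 0.184 in CM WT and 0.193 in ESC WT, and Rpl37rt at 0.296, 0.315, 0.281 and 0.418 RPKM in CM KO, CM WT, ESC KO and ESC WT. Both are retrogene copies by their symbols.

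Read numbers were higher in hosts with more snoRNA genes. Estimated reads per 1000000 reads of the library, which are not divided by gene length, had a median of 238 in CM KO for the 15 listed hosts with 1 snoRNA gene, 588 for the 4 with 2, 1242 for the 6 with 3 and 2645 for the 4 with 4 or 5. In CM WT the medians were 180, 464, 941 and 1864. In ESC KO they were 395, 1017, 2009 and 3608, and in ESC WT 306, 953, 1697 and 3396. Spearman's rho over the 29 hosts was 0.83 in CM KO, 0.87 in CM WT, 0.83 in ESC KO and 0.86 in ESC WT. It is a description across genes of 1 library each, and gene length is part of the read number. Of 45 snoRNA genes within members that have an identifier, 0 had a value of their own in any file, against 6.76% of 621 snoRNA genes that overlap another gene and 16.4% of 422 that overlap none. Snord13 and Snord118, which lie outside these genes, were among the highest values of the files, at 32238 and 28121 RPKM in CM KO. Whether reads of intronic snoRNAs entered the values of their hosts was not tested, since the files hold no positions of reads. The strandedness of the counting is not given either, so reads of overlapping genes cannot be told apart.

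By the median, the other coding genes with a snoRNA gene did not stand as high. They had a median of 0.841 RPKM in ESC WT over 324 listed genes, against 0.445 RPKM over 13785 listed coding genes without one. The highest of them had 990 RPKM in CM KO, 939 in CM WT, 2265 in ESC KO and 2081 in ESC WT. The highest member had 1085, 895, 1518 and 1445 RPKM in that order. Hosts among the members carried 2.53% of all reads in CM KO, 1.91% in CM WT, 3.85% in ESC KO and 3.47% in ESC WT, while the members without a snoRNA gene carried 0.077%, 0.0635%, 0.111% and 0.119%.

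The comparison of CM WT with ESC WT asks how chromatin RNA differs after differentiation of wild-type cells. All 79 members with at least 1 RPKM in either library were lower in CM WT. The median difference was -0.75 in log2(RPKM + 1), against -0.25 for all 5865 genes tested, of which 69.2% were lower. At least 2-fold lower were 11 members, where 6.5% of all genes were, and 0 members were at least 2-fold higher, where 4.6% of all genes were. At least 1.5-fold lower were 63 members, where 21% of all genes were, and 0 were at least 1.5-fold higher, where 9.91% were and where 30.8% of all genes were higher by any amount. The ratio of RPKM had a median of 0.537 among hosts and 0.549 among members without a snoRNA gene. On the log2(RPKM + 1) scale, which understates the change of low genes, these medians were -0.89 and -0.72. With 1 library in each group these differences have no replicate check, and the 95% Clopper-Pearson intervals on estimated reads given here cover counting error only.

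The 6 members with the lowest log2(RPKM + 1) difference between CM WT and ESC WT were all hosts. By the ratio of RPKM, members of low level without a snoRNA gene lay among them, such as Rpl36a at 1.72 RPKM in CM WT, against 4.41 in ESC WT (fold 0.391), Rpl36al (fold 0.397) and Rpl35 (fold 0.411). Rplp2, a protein of the ribosomal stalk, had 56.6 RPKM in CM WT, against 148 in ESC WT (fold 0.382, interval 0.371 to 0.393). Rps16, of the small subunit, had 145 RPKM in CM WT, against 356 in ESC WT (fold 0.408). Rpl39, which lines the exit tunnel for the growing peptide, had 66.5 RPKM in CM WT, against 158 in ESC WT (fold 0.42). They were followed by Rpl27a, Rpl30 and Rps12, at folds of 0.424, 0.441 and 0.467. The smallest difference was in Rpl8, with 9.77 RPKM in CM WT and 10.5 in ESC WT (fold 0.927, interval 0.831 to 1.03). Rpl36, Rps27 and Rpl29 were also among the 6 with the smallest log2(RPKM + 1) difference, at folds of 0.744, 0.743 and 0.594.

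In CM KO, 76 of 79 members were lower than in ESC KO, where 53.4% of all genes were, and 3 were higher, where 46.6% were. The median difference was -0.54 in log2(RPKM + 1), against -0.04 for 5558 genes tested, so the members lay 0.51 below the median of all genes here and 0.50 below it in the wild-type contrast. The difference between the contrasts was not tested. At least 2-fold lower on this scale were 3 members, where 3.67% of all genes were: Rps20, Rplp2 and Rpsa. At least 1.5-fold lower were 29 members, where 9.77% of all genes were. At 2-fold or more 0 members were higher, where 5% of all genes were, and at 1.5-fold or more 0 were, where 11.1% were. Rps20 had 58.5 RPKM in CM KO, against 131 in ESC KO. Rplp2 had 82.7 RPKM in CM KO, against 184 in ESC KO. Rpsa, which encodes a small-subunit protein also known as a laminin receptor, had 226 RPKM in CM KO, against 475 in ESC KO. Rpl21, Rpl23a and Rpl5 followed at folds of 0.513, 0.523 and 0.529. By the ratio of RPKM the lowest was Rpl29, with 0.586 RPKM in CM KO, against 1.6 in ESC KO (fold 0.367, interval 0.257 to 0.52).

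The 3 members that were higher in CM KO than in ESC KO were Rps21, Rpl8 and Rpl17. Rps21 had 8.78 RPKM in CM KO, against 5.73 in ESC KO (fold 1.53, interval 1.26 to 1.87). Rpl8 had 12.2 RPKM in CM KO, against 9.94 in ESC KO (fold 1.23). Rpl17 had 457 RPKM in CM KO, against 416 in ESC KO (fold 1.10). Rpl18, Rps27l and Rplp1 lay closest below them, at folds of 0.985, 0.975 and 0.941.

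**Figure D2:**
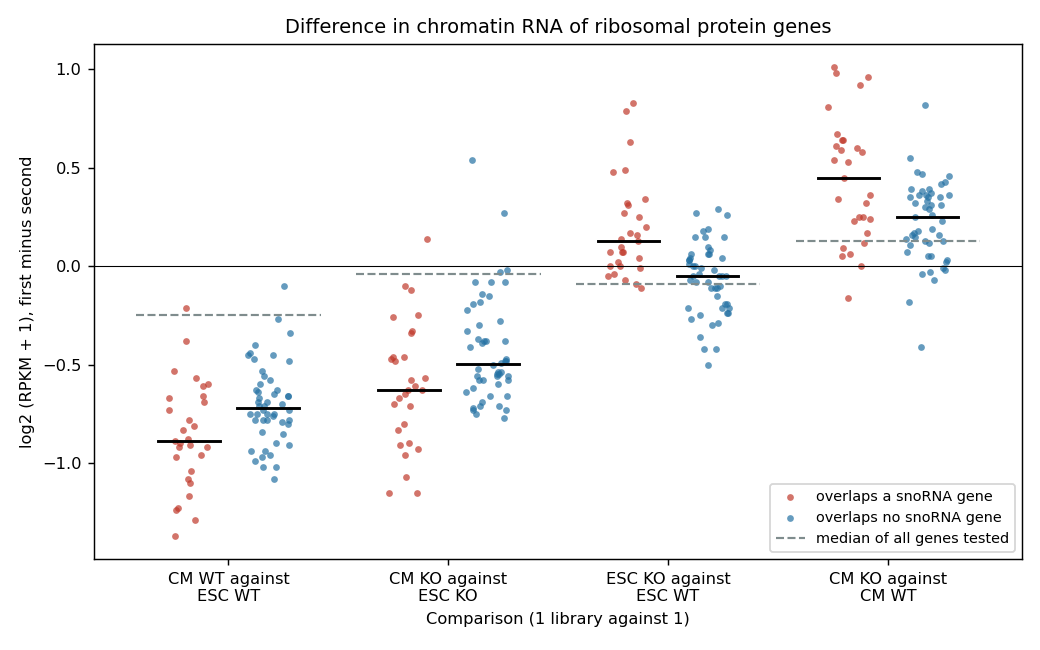
Difference in log2(RPKM + 1) of each ribosomal protein gene in 4 comparisons of 1 library against 1, with red points for genes that overlap a snoRNA gene, blue points for the others, black bars for their medians and dashed grey lines for the median of all genes tested. The medians of all members lie below the grey line in both CM against ESC comparisons (at -0.75 and -0.54), and red medians lie above blue ones in both KO against WT comparisons (0.13 against -0.05, and 0.45 against 0.25).

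ESC KO against ESC WT sets the genotypes side by side in undifferentiated cells. Of the 79 members tested, 41 were higher in ESC KO, where 30.6% of all genes were, and 38 were lower, where 69.4% were, with a median of 0.00 in log2(RPKM + 1), against -0.09 for 5240 genes tested. At 2-fold or more, 0 members were higher, where 1.49% of all genes were, and 0 were lower, where 0.649% were. At 1.5-fold or more 3 were higher, where 3.26% of all genes were, and 0 were lower, where 2.63% were. All genes tested include those that are not protein-coding. Of the 4390 coding genes tested, 4 were at least 2-fold higher and 5 lower, and 19 were at least 1.5-fold higher and 72 lower. Hosts and the other members were divided differently: 22 of 29 hosts were higher in ESC KO (median 0.13), against 19 of 50 members without a snoRNA gene (median -0.05). By subunit the hosts had medians of 0.16 for the large and 0.02 for the small subunit.

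The 6 members with the highest log2(RPKM + 1) difference between ESC KO and ESC WT were all hosts. Rps20 had 131 RPKM in ESC KO, against 73.5 in ESC WT (fold 1.79, interval 1.74 to 1.84). Rpl23 had 277 RPKM in ESC KO, against 179 in ESC WT (fold 1.55). Rpl23a, Rpl39 and Rps16 were also among the 6, at folds of 1.40, 1.40 and 1.26. By the ratio of RPKM, Rps19, which holds no snoRNA gene, had 7.05 RPKM in ESC KO, against 5.56 in ESC WT, a fold of 1.27 that lies above that of Rps16. The 6 with the lowest log2(RPKM + 1) difference held no snoRNA gene. Rps21 had 5.73 RPKM in ESC KO, against 8.49 in ESC WT (fold 0.674, interval 0.551 to 0.821). Rpl10a had 6.97 RPKM in ESC KO, against 9.70 in ESC WT (fold 0.719). Rps24, whose gene is mutated in some patients with Diamond-Blackfan anaemia, had 11 RPKM in ESC KO, against 15 in ESC WT (fold 0.733). Rpl7l1, Rpl41 and Rps15 followed at folds of 0.734, 0.792 and 0.788.

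CM KO against CM WT does so in the differentiated cultures, whose marker levels differed as given above. Of 78 members with at least 1 RPKM in either library, 70 were higher in CM KO, where 72.6% of all 5170 genes were higher, and 8 were lower, where 27.4% were. The median was 0.30 in log2(RPKM + 1), against 0.13 for all genes. Hosts had a median of 0.45 and members without a snoRNA gene 0.25. Only Rps16 was at least 2-fold higher on this scale, where 2.11% of all genes were, and 0 members were at least 2-fold lower, where 1.37% were. At 1.5-fold or more 12 were higher, where 5.09% of all genes were, and 0 were lower, where 2.77% were. Of the 4360 coding genes tested, 8 were at least 2-fold higher and 26 lower, and 71 were at least 1.5-fold higher and 55 lower.

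Rps16 had 295 RPKM in CM KO, against 145 in CM WT (fold 2.03, interval 1.98 to 2.08). Rpl37, of the large subunit, had 58.2 RPKM in CM KO, against 28.9 in CM WT (fold 2.01). Rpl17 had 457 RPKM in CM KO, against 234 in CM WT (fold 1.95). Rpl39 followed at 1.91-fold, Rps21, the only 1 of the top 6 without a snoRNA gene, at 1.93-fold (8.78 RPKM in CM KO, against 4.55 in CM WT), and Rps3a1 at 1.75-fold. The lowest ratio was in Rps27, with 2.34 RPKM in CM KO and 3.43 in CM WT (fold 0.683, interval 0.498 to 0.944), and Rpl10a, Rpl36 and Rps18 were also among the 6 lowest by log2(RPKM + 1) difference, at folds of 0.945, 0.958 and 0.971. The comparisons share libraries, so Rps21 in particular is set by the same 4 values throughout: 8.78 RPKM in CM KO, 4.55 in CM WT, 5.73 in ESC KO and 8.49 in ESC WT.

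Paralogues encode variants of a ribosomal protein, often restricted to certain tissues. Rpl22l1 had 4.14 RPKM in CM KO, 2.51 in CM WT, 6.16 in ESC KO and 4.92 in ESC WT. Rpl7l1 had 2.32, 2.21, 3.69 and 5.03 RPKM in the same order, and Rps27l, a p53 target gene, 3.11, 1.96, 3.18 and 3.48 RPKM. Rpl36al stayed between 0.704 RPKM in CM WT and 1.77 in ESC WT. Rpl39l, known for its role in the male germ line, had 0.229 RPKM in CM KO and 0.123 in CM WT, against 0.684 in ESC KO and 0.954 in ESC WT. Rpl10l, a retrogene of Rpl10 used in the testis, had 0.426, 0.0665, 0.661 and 0.245 RPKM in CM KO, CM WT, ESC KO and ESC WT. Rpl3l, the striated-muscle form of RPL3, was listed only in ESC WT, at 0.0472 RPKM, and in neither CM library. Ribosomal protein genes have many processed copies, and how the authors' counting treated reads that match several copies is not given, so values of single members, and of retrogene copies above all, are uncertain.

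Other genes of ribosome synthesis were set beside the members. Of 33 ribosome assembly genes tested, 33 were lower in CM WT than in ESC WT, with a median difference of -0.67 in log2(RPKM + 1). The translation factors with TOP mRNAs had a median of -0.61 (20 of 20 lower), the mitochondrial ribosomal proteins -0.44 (51 of 52 lower) and the regulators of ribosomal protein synthesis -0.47 (11 of 12 lower). All genes tested had a median of -0.25, and 69.2% of them were lower. These medians on the log2(RPKM + 1) scale depend on the level of the genes. The median ratio of RPKM was 0.508 for the assembly genes, 0.575 for the translation factors, 0.561 for the mitochondrial proteins and 0.607 for the regulators. It was 0.541 for the members and 0.747 for all genes tested. In CM KO against ESC KO the log2(RPKM + 1) medians were -0.36, -0.35, -0.18 and -0.21 in this order, where that of all genes was -0.04. In ESC KO against ESC WT the mitochondrial ribosomal proteins had a median of -0.18, with 47 of 52 lower, and the assembly genes -0.06. All genes tested had -0.09 there, with 69.4% lower. In CM KO against CM WT the 4 lists had medians of 0.24, 0.19, 0.23 and 0.23, with the assembly genes first and then the translation factors, mitochondrial proteins and regulators. Members without a snoRNA gene had 0.25 and all genes tested 0.13.

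The m6A lists name single positions by gene, as the distance from the 5′ end of the gene to a motif of 4 bases. The lists hold 14050 lines in CM KO, 25753 in CM WT, 18181 in ESC KO and 17093 in ESC WT, so the KO lists are not empty. In all, 55 members had a position on at least 1 list. Members with a listed position numbered 28 in CM KO, 35 in CM WT, 47 in ESC KO and 36 in ESC WT. The share of all coding genes with a position was 21.4%, 32.7%, 22.9% and 23% in the same order. Among genes of at least 1 RPKM in the matching library members were below the share of coding genes: 34.6% of members in CM KO, 44.2% in CM WT, 58.2% in ESC KO and 44.3% in ESC WT, against 65.9%, 85.6%, 76.8% and 72.8% of coding genes. These shares take no account of gene length, with a median of 3183 bp in members and 17146 bp in all coding genes. Per kb of gene, members had 0.0889 positions in CM KO, 0.116 in CM WT, 0.228 in ESC KO and 0.166 in ESC WT. All coding genes, whatever their RPKM, had 0.0124, 0.023, 0.0163 and 0.0153 per kb in that order. Other coding genes of at least 1 RPKM, of a length between the members' lower and upper quartile, were also counted. A position was listed in 56.6% of 265 such genes in CM KO and 79.7% of 237 in CM WT. In ESC KO it was 61.8% of 225, and in ESC WT 59.6% of 272. The members were not restricted to that range of length, and the part of length in the shares was not tested. Lists carry no counts or depth, so differences between lists have no error.

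**Figure D3:**
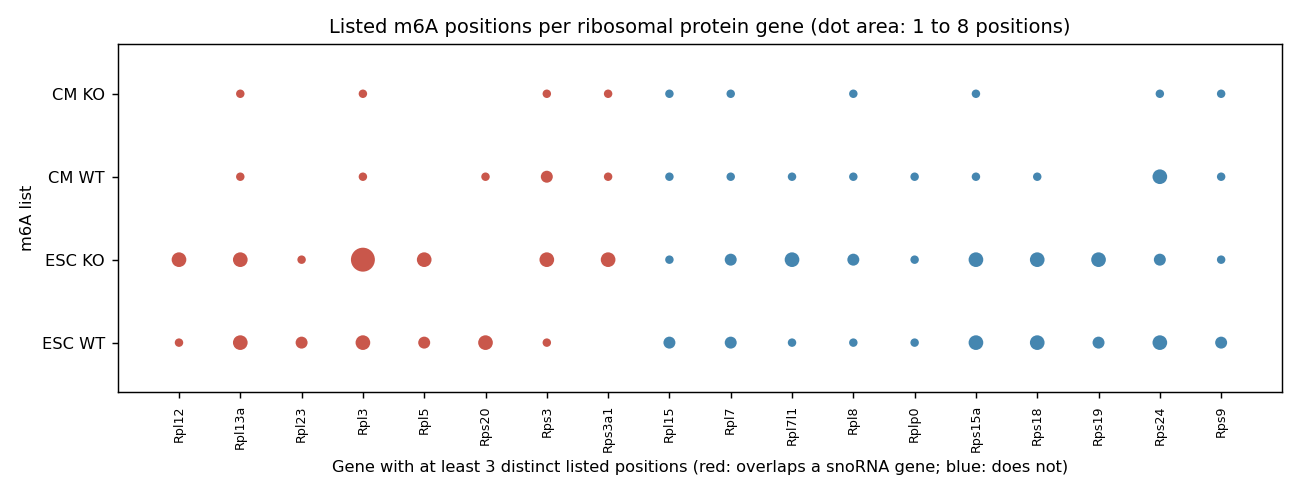
Number of listed m6A positions in each of the 18 ribosomal protein genes with at least 3 distinct positions over the 4 lists (columns), by list (rows). Dot area stands for 1 to 8 positions, red marks genes that overlap a snoRNA gene and blue the others; the largest dot is Rpl3 in ESC KO, and Rpl5, Rpl12, Rpl23 and Rps19 have dots in the ESC rows only.

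The CM KO list held 30 distinct positions in members, the CM WT list 39, the ESC KO list 77 and the ESC WT list 56. Rpl3, whose protein reaches towards the peptidyl transferase centre, had 1 position in each CM list, against 8 in ESC KO and 3 in ESC WT. Of its 9 distinct positions, 8 lay beyond the RefSeq length of the gene, as did 1 of Rps18, so the gene model behind these positions is longer than that of RefSeq. Rps3 had 1 position in CM KO, 2 in CM WT, 3 in ESC KO and 1 in ESC WT. Rps15a had 1 in each CM list, against 3 in each ESC list. The CM KO and CM WT lists shared 16 positions, 53.3% of those in CM KO and 41.0% of those in CM WT. The ESC KO and ESC WT lists shared 32, 41.6% of those in ESC KO and 57.1% of those in ESC WT. Of 124 distinct positions, 78 were on 1 list only (62.9%, against 56.2% of all positions) and 9 were on all 4 (7.26%, against 10.1%).

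The 9 positions on all 4 lists were in Rpl13a, Rpl23a, Rpl41, Rpl6, Rps12, Rps19bp1, Rps24, Rps29 and Rpsa. In Rps24 it lay 140 bases from the gene's 5′ end with the motif GGAC, and in Rpl41, which encodes the smallest ribosomal protein, 116 bases from it, also with GGAC. In Rpl13a the motif AGAC lay at 1357 bases and in Rpsa the motif GGAC at 1592 bases, and both of these lie within a snoRNA gene. Of 35 positions in hosts that could be placed, 6 lay within a snoRNA gene, the others being in Rpl10, Rpl4 and Rps13 and a second position of Rpl13a. Among positions within the RefSeq length, members had 20% in the last 20% of the gene, against 42.5% in all coding genes. In the first 20% they had 23.5%, against 18.5%. The 9 positions in Rpl3 and Rps18 beyond that length were left out of these shares.

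A few sites close to the start could be read in the RefSeq windows of GRCm38.p6, and they are shown because the letters at the listed distance are the listed motif, here in capitals. The base number given is the listed distance. In the counting used for the promoter sequences above, the motif begins at the next base.
Rpl24, base 6, chr16:55966268-55966297, plus strand: gttgctaggaaacAGACtgggcgctcggaa
Rpl34, base 66, chr3:130730316-130730345, minus strand: tttcctcttccggGGACggtgctcagaggt
Rpl36a, base 6, chrX:134585647-134585676, plus strand: aggcaccgcctatAAACttccgttgcggct
Rpl37a, base 36, chr1:72711283-72711309, plus strand: tcccttcctcttcGGACttgggcttgg
The Rpl24 site was listed in CM WT, ESC KO and ESC WT, and the Rpl34 and Rpl36a sites in CM KO, CM WT and ESC KO. In Rpl36a the listed motif is the end of the letters TATAAA printed above and the C that follows it. Over all genes, 133 of 724 positions that fall in such a window (18.4%) showed their motif at the listed distance from the 5′ end, against 2 to 10 at neighbouring distances. The other positions did not, so a placement by RefSeq gene ends, as used here for snoRNA genes and for shares of the gene length, is approximate.

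The starts of these genes were covered in nearly the same number in all groups. Of the 69 members with an annotated start, 63 or 64 had an ATAC interval over that start in each of the 12 libraries, and 60 had one in all 12 (87%), against 52.8% of 17492 coding gene starts. The exceptions were the starts of Rpl4 and Rps26, covered in 10 libraries, Rpl10l in 9 and Rpl19 in 8, and those of Rpl22, Rpl32l, Rpl37rt, Rpl3l and Rps27rt, covered in none. Only the most upstream annotated start of each gene was tested. In the gene plus 1 kb, Rpl22 had 2 to 4 intervals in every library. Rpl37rt and Rpl3l had 1 there, and Rpl32l and Rps27rt had 0. The summit of the interval lay 40 to 51 bases upstream of the start in the median of each library. Its fold over the library's own background, the authors' value and not comparable between lists, had medians of 7.79 to 8.25 in CM KO, 7.58 to 7.83 in CM WT, 6.29 to 6.50 in ESC KO and 6.71 to 6.85 in ESC WT.

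The far end of the genes differed between cell types. An interval in the 1 kb past the gene end was present at 21, 24 and 20 of the 69 members in CM KO libraries and at 26, 23 and 22 in CM WT libraries, against 35, 35 and 39 in ESC KO libraries and 40, 42 and 43 in ESC WT libraries. The CM and ESC libraries did not overlap, nor did ESC KO and ESC WT, while CM KO and CM WT overlapped. In shares this was 29% to 34.8% in CM KO, 31.9% to 37.7% in CM WT, 50.7% to 56.5% in ESC KO and 58.0% to 62.3% in ESC WT. Among the 17423 other coding genes the share was 7.66% to 8.39%, 8.74% to 9.29%, 11.8% to 12.3% and 11.9% to 12.8% in the same order. Within 500 bp of the start the members' share was 92.8% to 94.2% in all libraries. This window was chosen after the positions of the closed regions described below had been seen.

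**Figure D4:**
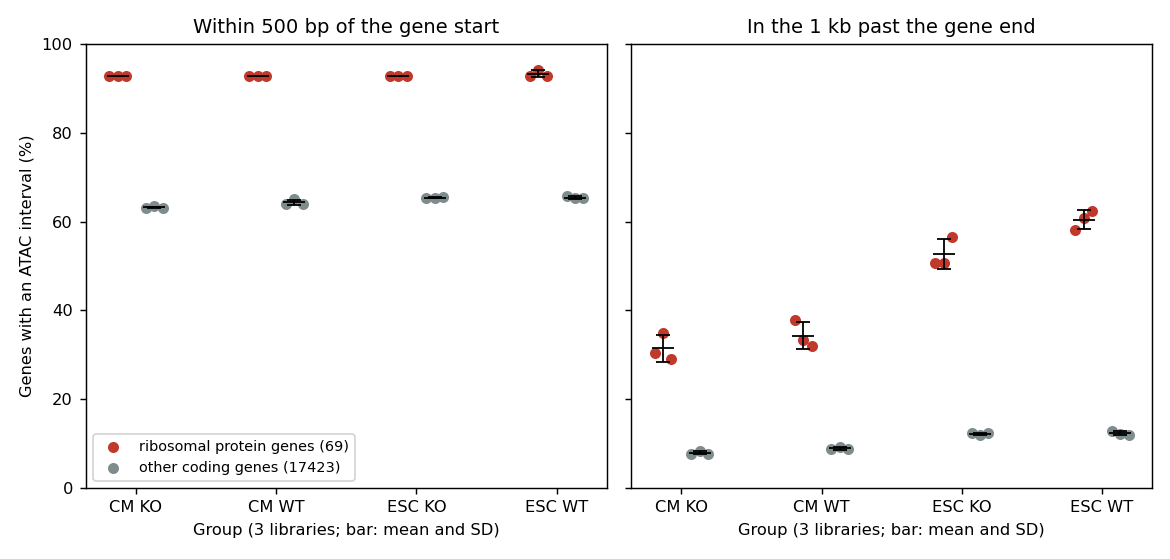
Share of genes with an ATAC interval within 500 bp of the gene start (left) and in the 1 kb past the gene end (right), for 69 ribosomal protein genes (red) and 17423 other coding genes (grey). Each point is a library, and bars are the mean and SD of 3; at the start the red points stay between 92.8% and 94.2%, and past the end they lie at 29% to 37.7% in CM and 50.7% to 62.3% in ESC libraries.

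The lists differ in length, from 70132 to 119307 intervals, and CM lists are the shorter ones. With the 70132 intervals of highest -log10 q kept in each library, the window past the end held an interval at 19 to 21 members in CM KO, 16 to 18 in CM WT, 30 to 32 in ESC KO and 31 to 33 in ESC WT. The gap between CM and ESC libraries was thus present at equal list length, that between ESC KO and ESC WT closed to an overlap, and CM KO lay above CM WT. Other coding genes then had shares of 7.42% to 7.9% in CM KO, 7.52% to 7.56% in CM WT, 8.33% to 8.61% in ESC KO and 8.45% to 8.75% in ESC WT. Another gene lay in the window of 24 of the 69 members. Among the 45 with none, 12 to 14 had an interval in CM KO, 12 to 15 in CM WT, 22 or 23 in ESC KO and 24 to 27 in ESC WT. Among other coding genes with none the shares were 5.01% to 5.73% in CM KO, 5.98% to 6.43% in CM WT, 8.93% to 9.46% in ESC KO and 8.87% to 9.61% in ESC WT.

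Gene by gene, 16 members had an interval past the end in all 12 libraries, 24 in none and 29 in some. Rpl11, Rpl13a, Rpl19, Rpl23, Rps10, Rps12, Rps19 and Rps23 were among the 16. In CM WT against ESC WT, 9 members had it in 0 of 3 CM libraries and 3 of 3 ESC libraries (13% of 69, where 2.1% of coding genes did): Rpl12, Rpl14, Rpl27a, Rpl6, Rpl7a, Rplp2, Rps15, Rps24 and Rps6. In CM KO against ESC KO, 10 did (14.5%, where 1.9% did), and Rpl12, Rpl14, Rplp2 and Rps6 were in both sets. Only a gene with an interval there in the second group of a comparison can lose it. In ESC WT 58.0% to 62.3% of members had one, against 11.9% to 12.8% of other coding genes. In ESC KO it was 50.7% to 56.5%, against 11.8% to 12.3%. The shares lost are of all genes tested and take no account of this. An interval gained past the end was seen in 0 members in all 4 comparisons, where 0.555%, 0.0629%, 0.154% and 0.0743% of coding genes gained one. In ESC KO against ESC WT the window lost its interval at Rpl27a and Rps24, where 0.252% of coding genes lost it. In CM KO against CM WT it did so at Rps9, where 0.469% did. At Rpl27a this concerns the window only. A merged region there, at chr7:109523188-109524712, reaches beyond the window. It was called in all libraries of both ESC groups and in replicate 2 of CM WT. Of 20 hosts with an annotated start, 6 had an interval there in all 12 libraries and 3 in none.

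**Figure D5:**
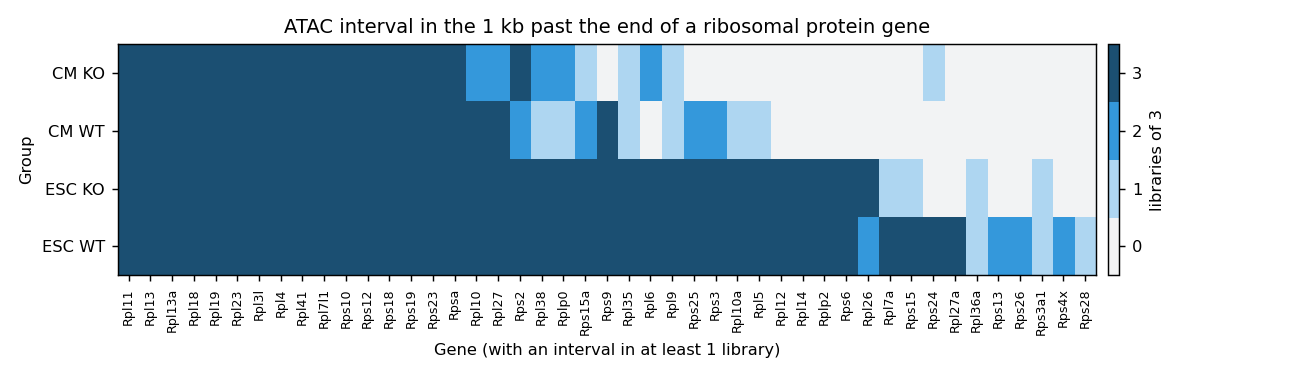
Number of libraries, of 3, with an ATAC interval in the 1 kb past the gene end, for each of the 45 ribosomal protein genes with an interval there in at least 1 library (columns) and each group (rows). The 16 genes at the left are dark in all 4 rows, and Rpl12, Rpl14, Rplp2 and Rps6 are among those empty in both CM rows and dark in both ESC rows.

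Over the gene plus 1 kb on either side, members held 1.46 ± 0.0234 intervals in CM KO, 1.5 ± 0.0531 in CM WT, 1.76 ± 0.0619 in ESC KO and 1.91 ± 0.0234 in ESC WT (mean ± SD over 3 libraries each). Libraries ranged over 1.44 to 1.48 in CM KO, 1.44 to 1.54 in CM WT, 1.69 to 1.80 in ESC KO and 1.89 to 1.93 in ESC WT. CM and ESC libraries did not overlap, nor did ESC KO and ESC WT, but at equal list length ESC KO, at 1.45 to 1.57, overlapped ESC WT, at 1.52 to 1.57, and CM KO, at 1.40 to 1.44, lay above CM WT, at 1.27 to 1.34. The surplus of the ESC libraries lay mostly away from the start: intervals at the 69 starts numbered 66 to 71 in CM KO, 65 to 69 in CM WT, 67 or 68 in ESC KO and 67 to 69 in ESC WT, while those past the gene end numbered 22 to 26, 25 to 28, 38 to 44 and 46 to 49.

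When the intervals of all 12 libraries were merged, 179 of 193427 regions lay in members plus 1 kb, and 65.4% of them were present in all 12 libraries, against 21.1% of all regions. A region called in 3 of 3 libraries of one group and in 0 of 3 of the other was counted as opened or closed. No p is given, since 3 libraries against 3 cannot go below 0.1. In CM WT against ESC WT, 0 of the 179 opened, where 5.83% of all regions did, and 18 closed (10.1%, where 11.5% did). In CM KO against ESC KO, 0 opened, where 0.948% did, and 16 closed (8.94%, where 9.74% did). The closed share of member regions was thus close to that of all regions. These counts depend on list length: with the same number of intervals in each library, 8 closed and 2 opened in CM WT against ESC WT, and 4 closed and 1 opened in CM KO against ESC KO. In ESC KO against ESC WT, 0 opened, where 1.25% did, and 1 closed, at Rps24, where 1.37% did. In CM KO against CM WT, 0 opened, where 0.754% did, and 1 closed, at Rps9, where 3.74% did.

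The members with a closed region in CM WT against ESC WT were Rpl6, Rpl7a, Rpl7l1, Rpl12, Rpl14, Rpl17, Rpl27a, Rpl36, Rplp2, Rps6, Rps9, Rps15, Rps15a, Rps23rg1, Rps24 and Rps26. In CM KO against ESC KO they were Rpl5, Rpl7l1, Rpl12, Rpl14, Rpl17, Rpl26, Rpl27a, Rplp0, Rplp2, Rps3, Rps6, Rps9, Rps25 and Rps26. Most closed regions with a strand lay past the gene, and none covered its start. Of 16 closed in CM WT against ESC WT whose gene has a strand, 11 had their centre past the gene end and 0 covered the start. Of 15 in CM KO against ESC KO, 13 had their centre past the end and 0 covered the start. Over all 15 the median centre lay 703 bp past the gene end. The region of Rplp2, at chr7:141451778-141452482, was called in 0 of 3 CM KO and 0 of 3 CM WT libraries, against 3 of 3 ESC KO and 3 of 3 ESC WT libraries. Those of Rps6, at chr4:86853020-86853772, of Rpl12, at chr2:32964506-32965398, and of Rpl14, at chr9:120575146-120575489, closed in both comparisons too. The region that closed in ESC KO against ESC WT lay 576 bp past the end of Rps24, at chr14:24497352-24497720, and that in CM KO against CM WT lay 348 bp past the end of Rps9, at chr7:3707056-3707433. These coordinates are those of the lists, whose build is mm10 per the submitters' processing notes.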

How the data were processed

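Chromatin RNA and m6A were measured in 1 library or list per group and open chromatin in 3 libraries per group. The authors deposited RPKM per gene, and the build is mm10 per the submitters' processing notes. ATAC intervals come from the authors with a fold over background, a -log10 p and -log10 q, and a score, in the layout that MACS2 writes. The submitters' processing notes name cutadapt, Bowtie, HISAT2, Picard and MACS2 without versions or roles. The m6A lists, as deposited, hold a gene identifier, a motif and a distance. One label of the third CM KO ATAC library names RNA, although its file is an interval list like the others.

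Members and lists were chosen with earlier results of these data known. RPKM was compared as log2(RPKM + 1) over genes that reached 1 RPKM in one or both libraries compared, with 2-fold as the threshold. Reads were estimated from RPKM and gene length. Low genes showed whole reads within 0.05 in 60.3% to 63.4% of cases, so no count test was run, and intervals cover counting error only. Lines that share an interval were joined to 1, and the intervals of all libraries were merged to 193427 regions where they shared at least 1 bp. Gene starts and strands come from the most upstream start in the RefSeq promoter table of GRCm38.p6, which for some genes, such as Rps9, lies inside the bounds of the gene table. Python 3.11.15, pandas 2.3.3, numpy 2.4.6, scipy 1.17.1 and matplotlib 3.10.9 were used. The depth estimate and the RNA ratios were tested on simulated reads. The merging, counting and calling of ATAC regions were tested on a small constructed set, and the other steps were not tested in this way.

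The genes named are the 6 highest and the 6 lowest members of each RNA comparison, the hosts, the paralogues, the 3 highest and 3 lowest by mean RPKM, and members with an m6A position or a changed region, of which examples are given. A few genes that this rule names are not reported here. Other members, such as those with an interval past the gene end, were named after their values were seen. No source used here gives the ATAC depth.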

Additional observations from a re-analysis of the deposited data

How the results depend on the processing

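Of 104 alternative values, 56 moved by less than the spread or limit set for them, 46 moved more and 2 changed direction. For CM WT against ESC WT the median was -0.88 with a pseudocount of 0.1 RPKM, -0.50 with libraries scaled to a median of 0 and -0.89 among hosts; the 11 members past 2-fold became 63 at 1.5-fold, 20 with that pseudocount and 2 after scaling. For CM KO against ESC KO the median was -0.62 with that pseudocount and -0.63 among hosts, and 3 members became 29 at 1.5-fold. For ESC KO against ESC WT the median was 0.10 after scaling, 0.13 among hosts, and -0.05 both among members without a snoRNA gene and among those that overlap no other gene, and 0 members became 3 at 1.5-fold. For CM KO against CM WT the median was 0.18 after scaling and 0.45 among hosts, and 1 member became 12 at 1.5-fold, 2 with that pseudocount and 0 after scaling. Leaving out positions shared with another gene left 18 members with m6A in CM KO. Mean intervals per member in CM KO, CM WT, ESC KO and ESC WT were 1.3, 1.25, 1.54 and 1.63 at a -log10 q of at least 5, 1.09, 1.1, 1.19 and 1.24 in the gene alone, and 1.42, 1.31, 1.49 and 1.55 with the same number of intervals in each library; with an overlap of 100 bp ESC WT had 1.83. With the same number of intervals, 10 regions changed in CM WT against ESC WT (2 opened, 8 closed), 5 in CM KO against ESC KO (1 opened, 4 closed) and 0 in ESC KO against ESC WT. CM KO against CM WT, with 0 opened and 1 closed, turned to 2 opened and 0 closed with the same number of intervals, and to 1 opened and 0 closed at a -log10 q of at least 5. In ESC KO against ESC WT, 0 changed at a -log10 q of at least 5 and 4 when 1 of 3 libraries was allowed, which gave 2 in CM KO against CM WT. Past the gene end, a choice of window and alternatives made after seeing the data, the means were 15, 15, 31.3 and 34.7 members at a -log10 q of at least 5, and with the same number of intervals 16.7 in CM WT, 31 in ESC KO and 32.3 in ESC WT. The causes were not tested. Counting m6A positions in the 1 kb beside the genes was not run, since the lists give positions by gene. No paired analysis was possible because these results come from no test.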
